A study of Mus musculus with 36 samples.

Results

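RNA was sequenced from myotubes of C2C12, a mouse myoblast line whose cells fuse into multinucleate muscle fibres in culture, at the moment electrical stimulation ended. The comparison is between myotubes in which the long non-coding RNA *Tug1* was knocked down (*Tug1* KD) and myotubes given a negative control oligonucleotide, and its libraries are those whose titles carry EPS 0h: 6 *Tug1* KD and 6 control libraries, 12 of the 36 libraries of the study. The study asked how *Tug1* shapes the response of muscle cells to exercise, with electrical pulse stimulation (EPS) as the exercise model. Every well was transfected with a locked nucleic acid oligonucleotide (LNA, 25 nM) by lipofection on day 3 of differentiation, either against *Tug1* or the control sequence, and on day 4 the EPS wells were pulsed for 3 h (13 V, 66 Hz, 2 ms pulses, alternating 5 s of pulsing with 5 s of pause). EPS 0h cells were harvested at once. The other libraries are Rest, with the electrodes not connected, and EPS 3h, harvested 3 h after the pulses ended, again with 6 libraries for each LNA. Both LNAs act in a single cell line without nerve, vessel or other tissue, every well carries an LNA and the transfection reagent, and the study describes 2 independent experiments of 3 wells each, without naming in its text which replicate number came from which experiment.

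An LNA gapmer pairs with its target RNA and recruits RNase H, a nuclear and cytoplasmic enzyme that cuts the RNA strand of the hybrid. *Tug1* (taurine upregulated gene 1) is transcribed in most tissues and found in nucleus and cytoplasm, where it has been tied to chromatin regulators and to mitochondrial genes. Contracting muscle releases calcium from the sarcoplasmic reticulum through the excitation-contraction coupling machinery, and the same calcium, with AMP kinase and CREB signalling, switches on immediate early genes within minutes.

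The 12 libraries held between 17005079 and 24181167 counts on genes, with medians of 19764457.5 in control and 19707815.5 in *Tug1* KD, so that 3 counts correspond to 0.124 to 0.176 RPM. Values given as RPM are a gene's counts per 1000000 counts on genes, scaled for library composition by TMM factors, and fold changes are log2 fold changes (log2FC, *Tug1* KD against control) fitted with the same scaling. The first principal component held 50.6% of the variance and parted replicates 1 to 3 from replicates 4 to 6, and the second held 19.5% and parted *Tug1* KD from control. Markers of the myotube were abundant in both groups: 12 of 13 listed genes, among them *Myog*, *Myh3*, *Ckm* and *Ttn*, passed the filter and none was called (2 were higher and 2 lower with a term for the replicate number), and their summed level ranged from 19108.1 to 23070.0 RPM in control and from 20691.6 to 23563.7 RPM in *Tug1* KD. The sum hides opposite moves: the log2FC of these genes ranged from −0.50 to 0.65, 6 positive and 6 negative. *Ttn* was higher and *Ckm* lower in *Tug1* KD in every same-numbered pair.

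*Tug1* itself (ENSMUSG00000056579, GRCm39 chromosome 11, 3589785 to 3599673, minus strand) was lower after knockdown, with groups that overlapped. The lowest, median and highest control libraries read 55.0, 67.7 and 80.6 RPM, and the *Tug1* KD libraries 29.5, 42.2 and 61.9 RPM. The *Tug1* KD library was nonetheless below the control library of the same replicate number in 6 of 6 pairs. The means were 67.5 ± 11.0 and 45.47 ± 12.02 RPM (SD, n = 6 each), a log2FC of −0.57 (SE 0.169, FDR = 0.0178 by edgeR's quasi-likelihood test), which is a level 1.49-fold lower. Within replicates 1 to 3 the log2FC was −0.51 and within replicates 4 to 6 it was −0.66. In libraries sharing none with these, *Tug1* was lower by log2FC −0.83 at Rest and −0.51 at EPS 3h. *Morc2a*, a gene of the opposite strand whose annotated span overlaps the end of *Tug1*, had a log2FC of 0.20 (FDR = 0.216), and because the strand setting of the counting is not given in the sources used here, reads of the 2 genes in the shared stretch may not be told apart. Of the neighbours, *Smtn*, which encodes the cytoskeletal protein smoothelin and lies 99173 bases away, was higher (log2FC 0.36, FDR = 0.0273, and 0.0599 with upper quartile factors), and *Osbp2*, 33804 bases away, had a log2FC of 0.16 (FDR = 0.614).

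Of 13995 genes tested, 1155 were higher and 850 lower in *Tug1* KD myotubes at an FDR under 0.05, which is 14.3% of the genes tested, 8.25% higher and 6.07% lower. Most differences were modest: the median log2FC was 0.50 among the higher and −0.51 among the lower genes, and 113 higher and 90 lower genes passed an absolute log2FC of 1. In 618 of the higher and 382 of the lower genes the 6 *Tug1* KD libraries did not overlap the 6 control libraries (1000 in all). Of all genes tested, 7.94% had no overlap, with 4.83% above every control library and 3.11% below. A term for the replicate number (the replicate block) pairs the libraries here. With it 1838 genes were higher (13.1%) and 1568 lower (11.2%), 24.3% in all, among them 2004 of the 2005 called without it. A block for replicates 1 to 3 against 4 to 6 alone gave 1721 higher and 1458 lower. The balance of directions depended on the scaling: 57.6% of the called genes were higher under the main scaling, 46.9% when libraries were scaled by their size alone (986 higher, 1118 lower) and 44.1% with upper quartile factors (953 higher, 1210 lower), which moved the median of all genes by −0.03 and −0.05 on the log2 scale. By annotation, 1087 higher and 828 lower genes were protein coding (of 12581), and 49 higher and 18 lower were long non-coding RNAs (of 824).

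**Figure D1:**
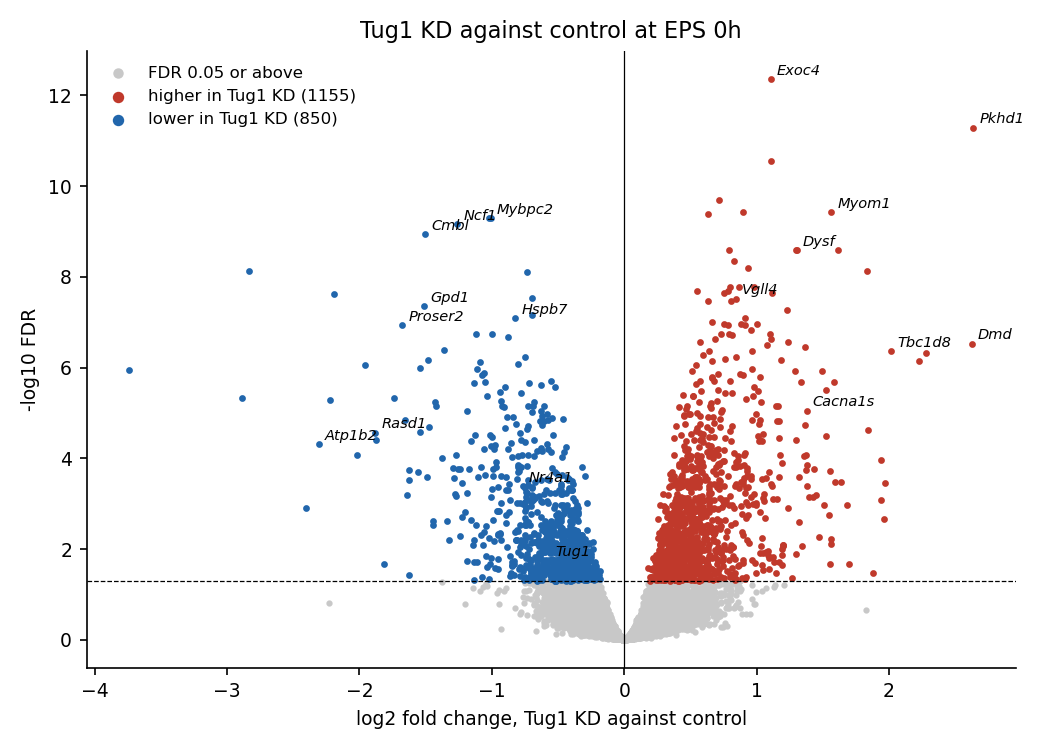
Log2 fold change of *Tug1* KD against control at EPS 0h (x axis) and −log10 of the FDR (y axis) for the 13995 genes tested, with the 1155 higher genes in red and the 850 lower genes in blue. *Dmd*, *Pkhd1* and *Myom1* stand far to the right and *Atp1b2*, *Cmbl* and *Mybpc2* to the left, while most called genes lie within an absolute log2FC of 1.

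The largest rises were taken among called genes without overlap that averaged 5 RPM or more in whichever group was higher, a level that *Pkhd1*, *Dmd*, *Nrxn3*, *Cacna1b* and *Usp44* reached only in *Tug1* KD. *Pkhd1*, which encodes fibrocystin of the primary cilium, read 3.26, 4.64 and 7.46 RPM at the lowest, median and highest control library, and 25.8, 30.2 and 37.7 RPM in *Tug1* KD. That is a log2FC of 2.64 (SE 0.191, FDR = 5.11e-12), 6.22-fold. *Nrxn3*, a synaptic adhesion protein, rose by log2FC 2.28 from a mean of 4.07 ± 1.09 to 19.8 ± 8.05 RPM, and *Cacna1b*, the pore subunit of the N-type calcium channel of neurons, by log2FC 1.62 from 3.14 ± 0.763 to 9.61 ± 1.31 RPM. *Dio2*, the deiodinase that makes active thyroid hormone within cells, ranged from 12.2 to 34.8 RPM in control and from 37.4 to 105 RPM in *Tug1* KD (log2FC 1.63, FDR = 3.41e-04). *Tbc1d8* of the Rab GTPase-activating family (log2FC 2.02), the deubiquitinase *Usp44* (1.97), *Hectd2os* (1.84), an RNA antisense to *Hectd2* whose reads may not be told apart from it, and the predicted gene *Gm38403* (1.58) complete the set with *Dmd* and *Myom1*, described with the muscle genes.

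By the same criteria the largest fall was in *Atp1b2*, the beta 2 subunit of the sodium-potassium pump. It read 11.7, 21.1 and 31.3 RPM at the lowest, median and highest control library and 2.33, 3.95 and 7.04 RPM in *Tug1* KD, a log2FC of −2.31 (SE 0.387, FDR = 4.89e-05) or 4.95-fold lower, with no overlap. Several of the others encode enzymes: *Gpd1*, cytosolic glycerol-3-phosphate dehydrogenase, fell by 1.51 on the log2 scale (7.24 ± 0.804 to 2.53 ± 0.434 RPM) and the hydrolase *Cmbl* was 2.83-fold lower (50.8 ± 8.07 to 17.9 ± 3.19 RPM). *Mgst2*, a microsomal glutathione transferase, fell by 1.36 (7.06 ± 0.609 to 2.76 ± 0.626 RPM). *Ncf1*, a subunit of the NADPH oxidase, was tightly grouped, between 7.13 and 7.91 RPM in control and between 2.56 and 3.63 RPM in *Tug1* KD (log2FC −1.26, FDR = 6.88e-10). Other large falls were in the ephrin ligand *Efna1* (−1.29), *Proser2* (−1.68), *Gm13889* (−1.66) and *Sertad1* (−1.13), a co-regulator of transcription in the cell cycle.

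**Figure D2:**
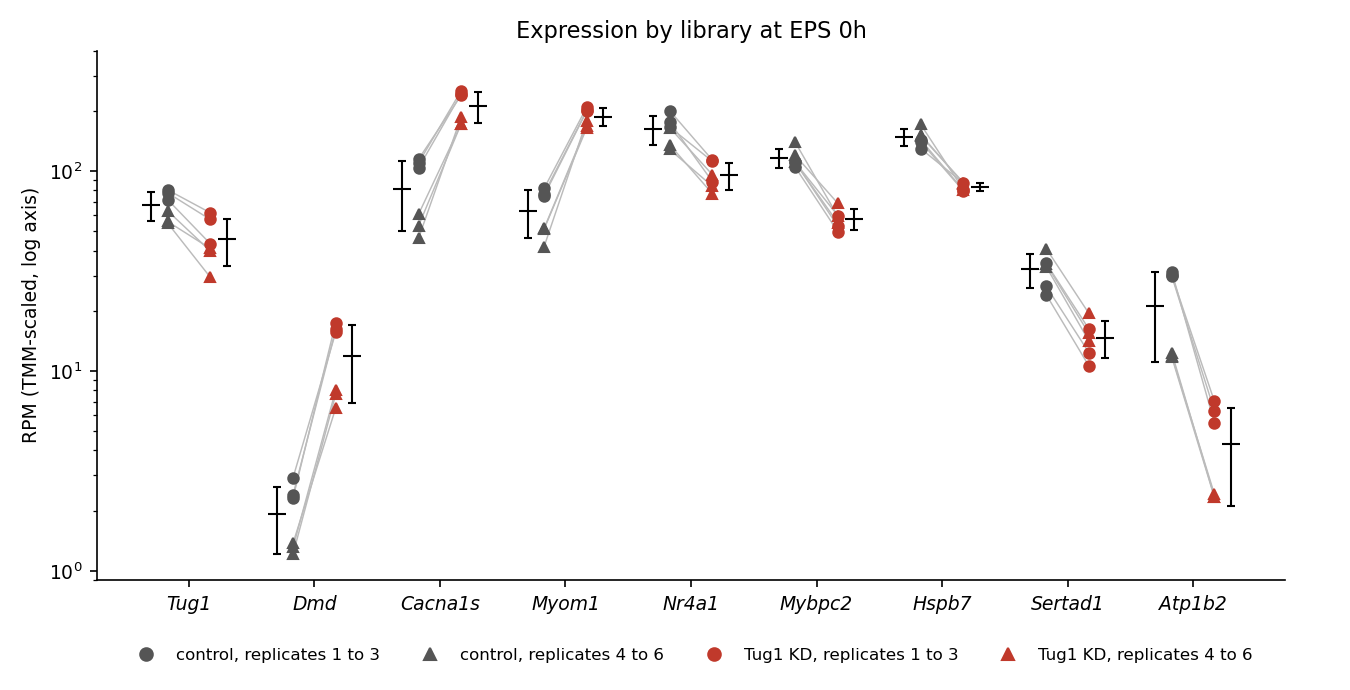
RPM on a log axis of *Tug1* and 8 other called genes in each EPS 0h library, with circles for replicates 1 to 3, triangles for replicates 4 to 6, lines joining control and *Tug1* KD libraries of the same number, and bars beside the points for the mean ± SD (n = 6). Every line rises for *Dmd*, *Cacna1s* and *Myom1* and falls for the other genes shown, and of the 9 genes shown only *Tug1* has groups that overlap.

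The dystrophin-glycoprotein complex, which ties the cytoskeleton of the muscle fibre to the matrix, held the largest rise of the muscle genes. Of 23 genes of the complex tested, 6 were higher and 1 lower, beside 8.25% higher and 6.07% lower of all genes tested. *Dmd* (dystrophin, GRCm39 chromosome X, 81992474 to 84249747, plus strand) read 1.21, 1.85 and 2.92 RPM at the lowest, median and highest control library. In *Tug1* KD it read 6.52, 11.8 and 17.5 RPM, a log2FC of 2.62 (SE 0.322, FDR = 2.95e-07) or 6.17-fold, and the lowest *Tug1* KD library lay above the highest control. Delta-sarcoglycan (*Sgcd*), a membrane partner of dystrophin, rose by log2FC 1.17 (7.62 ± 2.87 to 17.2 ± 5.25 RPM) and the membrane repair protein dysferlin (*Dysf*) by 1.30 (46.1 ± 9.43 to 113 ± 13.6 RPM), each without overlap. Utrophin (*Utrn*, chosen after its values were seen), the autosomal relative of dystrophin, rose by 0.90. Sarcospan (*Sspn*) fell by 0.28 (FDR = 0.0221), and *Sspnos*, its antisense neighbour, by 1.06; reads of these overlapping genes may not be told apart. The list's median log2FC was 0.13, against −0.00 over all genes tested. In bulk RNA such as this, a difference in the share of mature myotubes and a difference in RNA per cell cannot be told apart.

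In excitation-contraction coupling and calcium signalling, 13 of 39 genes were higher and 7 lower, with a median log2FC of 0.11. Over all genes tested 8.25% were higher and 6.07% lower. Among the higher genes were channels of the triad, the junction where the membrane voltage sensor opens the calcium release channel. *Cacna1s*, the pore subunit of the voltage sensor (chromosome 1, 135980259 to 136047560, plus strand), read 46.2, 82.4 and 115 RPM at the lowest, median and highest control library and 173, 214 and 253 RPM in *Tug1* KD (log2FC 1.38, SE 0.206, FDR = 8.85e-06). Its auxiliary subunit *Cacna2d1* rose by log2FC 1.52 (83.4 ± 24.0 to 239 ± 79.7 RPM). The release channel *Ryr1* rose by 0.89 (281 ± 101 to 522 ± 47.5 RPM) without overlap, and *Ryr3*, a second form of it, by 1.47 (23.6 ± 13.7 to 65.6 ± 30.5 RPM) with overlapping groups.

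Among the lower genes of the list were proteins of the same junction and of the calcium store. *Casq1*, the calcium-binding protein of the fast muscle store, ranged from 115 to 151 RPM in control and from 74.5 to 98.0 RPM in *Tug1* KD, a log2FC of −0.54 (SE 0.0879, FDR = 3.06e-05). The slow and cardiac form *Casq2* (chosen after its values were seen) moved the other way, from a median of 706 to 1089 RPM (log2FC 0.68, FDR = 3.77e-04). *Atp2a1*, the pump that returns calcium to the store, fell by 0.46 (578 ± 61.3 to 421 ± 39.5 RPM) and *Jsrp1* and *Stac3*, adaptors of the triad, fell by 0.52 and 0.48, all 3 without overlap. *Rcan1*, an inhibitor of calcineurin that calcineurin signalling induces, fell by 0.54 (149 ± 18.5 to 103 ± 13.5 RPM). Among the mitochondrial calcium genes, the uniporter pore *Mcu* rose by log2FC 0.71 (73.6 ± 17.4 to 121 ± 21.0 RPM), while *Mcur1* fell by 0.35. *Micu2*, a gatekeeper of the pore, had a log2FC of 0.29 and an FDR of 0.0739, or 0.00476 with the replicate block. That made 2 higher and 1 lower of 12, and 3 higher and 4 lower with the block. Over all genes tested 8.25% were higher and 6.07% lower, 13.1% and 11.2% with the block.

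In the sarcomere too, members differed in direction. Of 48 genes, 7 were higher and 3 lower (16 and 5 with the replicate block), with a median log2FC of 0.11. *Myom1*, which crosslinks myosin at the M-band, read 41.9, 63.5 and 81.9 RPM at the lowest, median and highest control library and 164, 189.6 and 209 RPM in *Tug1* KD (log2FC 1.56, SE 0.136, FDR = 3.68e-10). The giant protein nebulin (*Neb*, 796 ± 413 to 1686 ± 616 RPM) rose by log2FC 1.08 and *Myom2* by 0.93 (546 ± 77.7 to 1041 ± 51.0 RPM). The counts of called genes are to be read beside the 8.25% higher and 6.07% lower of all genes tested. The 3 lower genes were *Mybpc2*, *Mylk2* and *Actn3*. *Mybpc2*, fast myosin-binding protein C, went from 105, 111 and 139.5 RPM to 49.7, 57.2 and 69.0 RPM (log2FC −1.01, SE 0.0901, FDR = 5.10e-10). *Mylk2*, the skeletal myosin light chain kinase, fell by 0.73 and *Actn3*, the fast fibre alpha-actinin, by 0.36. None of the 8 sarcomeric myosin heavy chain genes tested was called; with the block 1 was higher and 2 lower.

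Regulators of differentiation and fusion also differed. Among myogenic transcription factors and their cofactors 5 of 29 were higher and 2 lower (8 and 4 with the replicate block). Over all genes tested 8.25% were higher and 6.07% lower (13.1% and 11.2% with the block). The share of lower genes in the list without the block was near that of all genes. *Mef2c* rose by log2FC 1.05 (122 ± 46.3 to 252 ± 78.0 RPM), as did the class IIa deacetylases that bind MEF2, *Hdac9* (1.00) and *Hdac4* (0.49), and *Vgll4*, a TEAD cofactor (0.84; 110.3 ± 9.66 to 198 ± 24.1 RPM). *Myf6* (MRF4), the last of the myogenic regulatory factors to come on in differentiation, read 4.14, 6.61 and 9.66 RPM at the lowest, median and highest control library and 0.974, 2.57 and 5.70 RPM in *Tug1* KD. The groups overlapped, and the difference was −1.34 (SE 0.312, FDR = 0.00247), lower in 6 of 6 pairs. *Id3*, which holds back the myogenic factors, fell by 0.54. *Myod1* and *Myog*, looked at after the values were seen, had log2FC of −0.21 (FDR = 0.105) and −0.06 (FDR = 0.769).

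Of 19 genes of myoblast fusion and adhesion, 7 were higher and none lower, with a median log2FC of 0.21 (6 to 8 higher and 1 lower under both other scalings, DESeq2, limma-voom, the replicate block and a block for replicates 1 to 3 against 4 to 6). Nephronectin (*Npnt*), a matrix ligand of integrins, rose from 278 ± 82.3 to 528 ± 99.7 RPM (log2FC 0.92), neural cell adhesion molecule (*Ncam1*) by 0.84, N-cadherin (*Cdh2*) by 0.83 and the phosphatidylserine receptor *Stab2* by 0.70 (FDR = 0.0449, lost with both other scalings, at 0.0528 and 0.0585, and with limma-voom, at 0.0668). N-cadherin was the most even of them, between 111 and 144 RPM in control and between 221 and 236 RPM in *Tug1* KD. At the neuromuscular junction and among genes of excitability 2 of 24 were higher and 4 lower, 6 and 5 with the replicate block. Over all genes tested 8.25% were higher and 6.07% lower, 13.1% and 11.2% with the block. The share of higher junction and excitability genes without the block was thus near that of all genes. The receptor kinase *Musk*, which clusters acetylcholine receptors, rose by 0.81 (57.1 ± 10.4 to 100.3 ± 12.2 RPM), and acetylcholinesterase (*Ache*) fell by 0.81 (4.04 ± 0.700 to 2.29 ± 0.154 RPM). The potassium channel *Kcna7* fell by 0.76, and of the sodium-potassium pump *Atp1b3*, another beta subunit beside *Atp1b2*, rose by 0.25 (FDR = 0.0182, and 0.0611 with upper quartile factors).

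**Figure D3:**
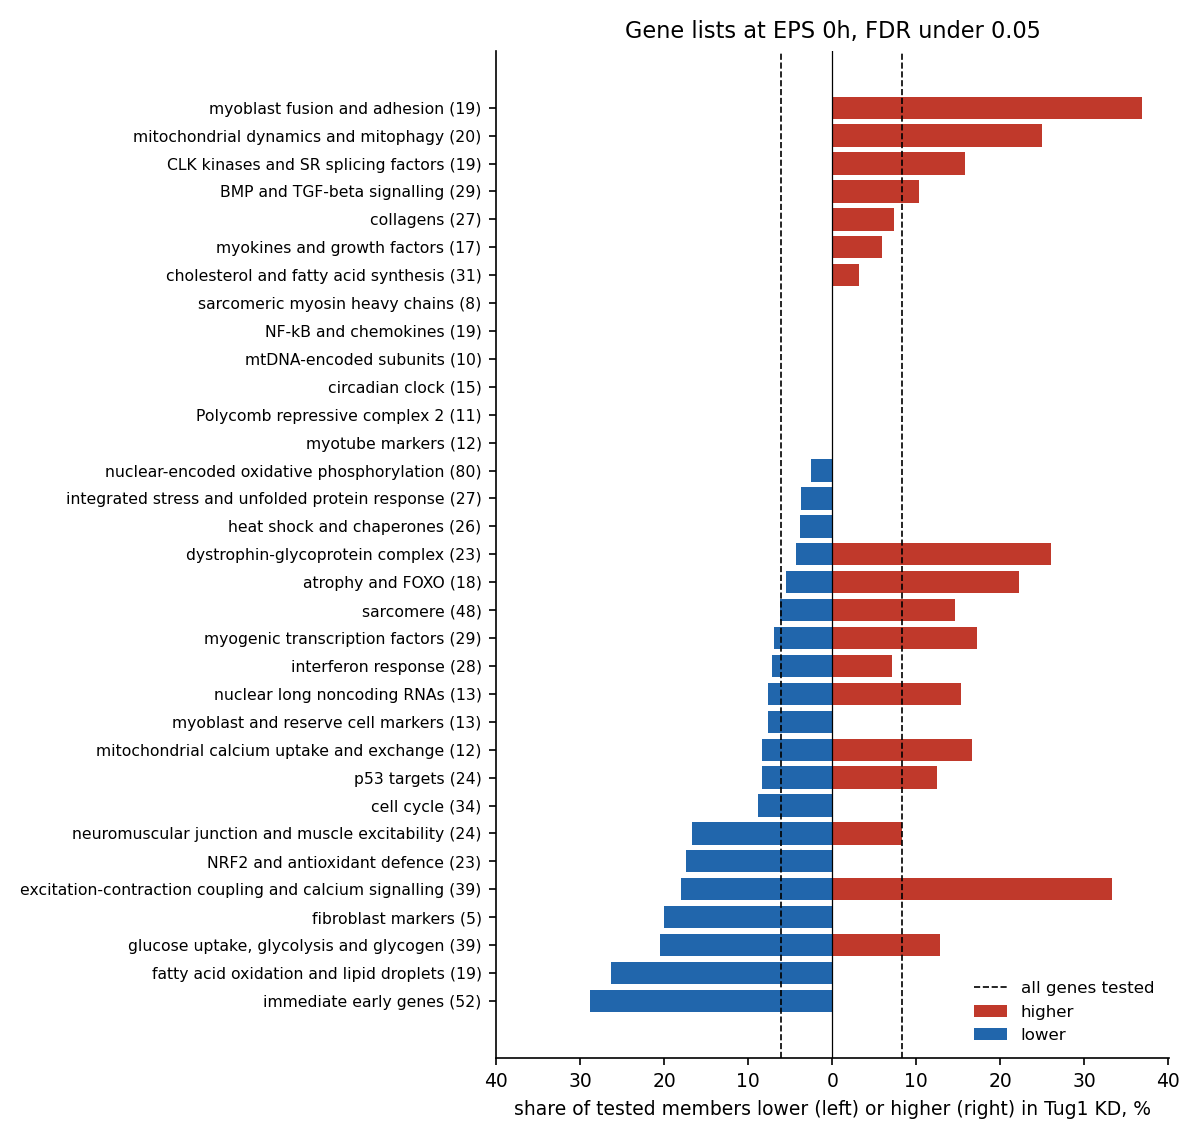
Share of the tested members of each gene list that were lower (left, blue) or higher (right, red) in *Tug1* KD at EPS 0h, in percent, for lists with at least 5 genes tested; dashed lines mark the shares over all genes tested, 6.07% lower and 8.25% higher. Under the main scaling the called immediate early genes are all lower, those of fusion and of mitochondrial dynamics all higher (1 fusion gene was lower with both other scalings, DESeq2, limma-voom and both blocks), and excitation-contraction coupling has both.

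Immediate early genes, transcription factors and signalling regulators that cells induce within minutes of a stimulus, were lower in *Tug1* KD or not called. Of 52 tested, 15 were lower and none higher, 46 had a negative log2FC, and the median was −0.35. Over all genes tested 6.07% were lower and 8.25% higher, and the median was −0.00. The count of lower genes was 23 with the replicate block, 19 with scaling by library size and 21 with upper quartile factors. The shares of all genes lower in these fits were 11.2%, 7.99% and 8.65%. *Nr4a1*, an orphan nuclear receptor induced by contraction (GRCm39 chromosome 15, 101151980 to 101172681, plus strand), read 128, 166 and 201 RPM at the lowest, median and highest control library. In *Tug1* KD the values were 77.1, 92.3 and 114 RPM, a log2FC of −0.77 (SE 0.151, FDR = 4.06e-04) without overlap. Its relative *Nr4a2* (chosen after its values were seen) went from a median of 19.9 to 11.4 RPM (−0.76, FDR = 0.00683). *Fos*, a subunit of AP-1 chosen likewise, ranged from 47.6 to 73.7 RPM in control and from 40.1 to 49.5 RPM in *Tug1* KD (−0.46, FDR = 0.0110), with overlap.

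*Rasd1*, a small G protein induced by glucocorticoids, was low but had the largest difference of the list, 1.07 to 1.83 RPM in control and 0.291 to 0.575 RPM in *Tug1* KD (log2FC −1.88, SE 0.303, FDR = 2.71e-05). *Klf2*, a zinc finger factor that also responds to flow and statins, fell by 0.90 (14.1 ± 1.99 to 7.596 ± 1.66 RPM), and the clock gene *Per1* by 0.78 (49.7 ± 8.04 to 28.9 ± 3.796 RPM), both without overlap. *Maff*, a small MAF factor, fell by 0.46 (119 ± 16.4 to 86.2 ± 11.0 RPM). Others of the list were not called: *Atf3* had a log2FC of −0.10 (FDR = 0.555) and *Nr4a3* −0.30 (FDR = 0.402). The members are short genes, with a median annotated span of 8592.5 bases against 24360.5 over all annotated genes tested. Among tested genes with spans of 8031 to 12564 bases, 10.5% were lower and 2.01% higher, with a median log2FC of −0.12. The part of span in the falls of the immediate early genes was not tested.

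EPS against Rest is set beside these values for the same genes; it uses the same EPS 0h libraries, so the comparisons are not independent. *Nr4a1* was higher at EPS 0h than at Rest by log2FC 1.40 in control myotubes and by 1.20 in *Tug1* KD, *Maff* by 0.84 and 0.79, and *Atf3* by 1.36 and 1.46. *Klf2* was lower at EPS 0h than at Rest, by log2FC −1.46 in control and −1.94 in *Tug1* KD. At Rest, in other libraries, 14 of the 52 immediate early genes were lower and 1 higher in *Tug1* KD with a median log2FC of −0.29 (4.47% of all genes tested were lower there and 5.54% higher). At EPS 3h 9 were lower and 1 higher with a median of −0.21 (5.11% and 6.38% of all genes). At EPS 0h all *Tug1* KD libraries lay below every control library in 9 of the 52, and in 3.11% of all genes tested. Of these 9, *Nr4a1* had a log2FC of −0.57 at Rest, *Klf2* −0.42 and *Per1* −0.43. Rest values of the others are not listed here.

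Because many immediate early genes respond to CREB family factors, whose sites hold the letters TGACG, promoters were read from RefSeq (build GRCm38.p6, 250 bases before to 50 after each start) and searched for TGACG on both strands (CGTCA on the strand shown). Of the 15 lower genes 12 matched the promoter table, and 10 of these 12 (83.3%) held the letters, against 15 of 25 (60.0%) of the immediate early genes not called, 34.7% of 10497 tested genes with a promoter and 23.0% of all 27025 genes in the table. Of other lower genes, *Klf2* and each listed promoter of *Per1* held 1 match, and the listed promoters of *Maff* 0, 2 and 1. The 2 matches of *Maff* overlap in the letters TGACGTCA, which the listed promoters of *Nr4a1*, *Nr4a2*, *Fos*, *Klf2* and *Per1* did not hold. The 250 bases before the start of *Nr4a1*, *Nr4a2* and *Fos* are shown, chosen after their values and matches were seen. They carry 4, 4 and 2 matches, which stand in capitals, 5′ to 3′ on the strand of the gene. A match is a run of letters and not a shown site of binding. The difference between the shares was not tested, nor was any part of these letters in the falls.
*Nr4a1* (chr15:101266596-101266845, plus strand): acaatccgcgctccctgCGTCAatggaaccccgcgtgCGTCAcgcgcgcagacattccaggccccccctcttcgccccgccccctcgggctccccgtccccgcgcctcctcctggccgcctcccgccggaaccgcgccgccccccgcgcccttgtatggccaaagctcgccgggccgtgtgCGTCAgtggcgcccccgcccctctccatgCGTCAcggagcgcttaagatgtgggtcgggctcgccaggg
*Nr4a2* (chr2:57124004-57124253, minus strand): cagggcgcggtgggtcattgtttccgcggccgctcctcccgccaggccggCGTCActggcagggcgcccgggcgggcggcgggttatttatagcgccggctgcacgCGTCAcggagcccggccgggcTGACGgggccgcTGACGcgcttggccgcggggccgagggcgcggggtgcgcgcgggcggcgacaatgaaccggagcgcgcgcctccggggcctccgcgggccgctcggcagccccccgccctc
*Fos* (chr12:85473640-85473889, plus strand): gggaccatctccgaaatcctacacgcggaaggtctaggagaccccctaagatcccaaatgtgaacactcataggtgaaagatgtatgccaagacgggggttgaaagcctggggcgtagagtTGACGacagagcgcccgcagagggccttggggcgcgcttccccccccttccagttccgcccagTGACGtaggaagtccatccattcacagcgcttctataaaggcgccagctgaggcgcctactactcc

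Genes of fuel use were called lower more often than higher, beside 8.25% higher and 6.07% lower of all genes tested. In glucose uptake, glycolysis and glycogen 8 of 39 genes were lower and 5 higher, with a median log2FC of −0.22 (15 lower and 6 higher with the replicate block). The lower genes included enzymes of glycolysis: muscle phosphoglycerate mutase (*Pgam2*) ranged from 85.2 to 99.1 RPM in control and from 51.4 to 63.4 RPM in *Tug1* KD, a log2FC of −0.68 (FDR = 7.07e-04), triose phosphate isomerase (*Tpi1*) fell by 0.55 (849 ± 108 to 579.8 ± 79.8 RPM) and lactate dehydrogenase B (*Ldhb*) by 0.49. *Arrdc4*, an arrestin-like protein that limits glucose uptake, fell by 0.58. Among the 5 higher genes were the phosphorylase kinase subunits *Phkb* (log2FC 0.68) and *Phka1* (0.46), and *Ppp1r3c*, which targets protein phosphatase 1 to glycogen (24.0 ± 4.21 to 34.9 ± 6.65 RPM; 0.54, FDR = 0.0352). *Pfkfb4*, which sets the level of the glycolytic activator fructose-2,6-bisphosphate, rose by 0.46. The calls of *Ppp1r3c* (FDR = 0.0530 and 0.0597) and *Pfkfb4* (0.0515 and 0.0518) were lost with library size and upper quartile scaling, which left 3 higher and 10 lower genes in the list.

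Of 19 genes of fatty acid oxidation and lipid droplets, 5 were lower and none higher (6 lower and 1 higher with the block), with a median of −0.15. Over all genes tested 6.07% were lower and 8.25% higher (11.2% and 13.1% with the block). Medium-chain acyl-CoA dehydrogenase (*Acadm*) fell by 0.52 (94.0 ± 5.19 to 65.5 ± 2.72 RPM), the thioesterase *Acot2* by 0.83, the uncoupling protein *Ucp2* by 0.53 and the droplet protein *Plin3* by 0.41. *Acadm* was the clearest of them, with 88.8 RPM in the lowest control and 67.7 RPM in the highest *Tug1* KD library. The nuclear genes of oxidative phosphorylation had a negative log2FC in 65 of 80, with a median of −0.11, and 2 were lower and none higher (3 and 2 with the block). Both lower genes encode muscle forms of cytochrome oxidase subunits, *Cox7a1* (4.26 ± 1.03 to 2.18 ± 0.878 RPM, log2FC −0.98, FDR = 0.0262) and *Cox8b* (12.2 ± 2.17 to 6.79 ± 1.77 RPM, −0.85, FDR = 0.0224). None of the 10 mtDNA-encoded subunits tested was called, 9 were negative and their median was −0.08. Both lists had other signs at Rest. There 55 of the 80 nuclear genes were positive, with a median of 0.04, as were all 10 mtDNA-encoded subunits, with a median of 0.27. At EPS 3h 37 of the 80 and 6 of the 10 were positive. The effect at EPS 0h minus that at Rest was negative in 74 of the 80 and in all 10, and no gene passed an FDR of 0.05. In mitochondrial dynamics and mitophagy, 5 of 20 were higher and none lower, with a median of 0.19, among them the lipid transfer proteins *Vps13a* (0.74), *Vps13d* (0.67) and *Vps13c* (0.50; FDR = 0.0412, and 0.0617 and 0.0553 with library size and upper quartile scaling), and the fission protein *Mtfp1* (0.63).

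Regulators of mitochondrial genes that the study follows differed one from another. *Esrrg*, an estrogen-related receptor, rose by log2FC 1.68 from low levels (0.217 to 0.731 RPM in control, 0.624 to 2.91 RPM in *Tug1* KD; FDR = 0.00106), and *Esrrb* by 0.85 (0.673 ± 0.165 to 1.21 ± 0.230 RPM, FDR = 0.0465, and 0.0515 with library size scaling, 0.0564 with upper quartile factors and 0.0502 with limma-voom), whereas *Esrra* had a log2FC of 0.14 (FDR = 0.780). *Alas1*, the entry enzyme of haem synthesis, fell by 0.58 (69.9 ± 3.77 to 46.6 ± 6.33 RPM). *Nrf1* (0.06), *Gabpa* (0.03; −0.014 with upper quartile factors) and *Tfam* (−0.03; 0.011 in replicates 1 to 3 alone) did not pass the test. *Polrmt*, the mitochondrial RNA polymerase (−0.25, FDR = 0.0543), *Pparg* (−0.26, FDR = 0.128) and the acetyltransferase *Kat2a* (−0.22, FDR = 0.0842) did not pass, but did with the replicate block, at an FDR of 0.0139, 0.0283 and 0.0365. *Polrmt* and *Kat2a* also passed with DESeq2 (0.0288 and 0.0453), library size scaling (0.0259 and 0.0480) and upper quartile factors (0.0212 and 0.0360).

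The stress lists differed in how many genes passed the test, to be read beside the 8.25% higher and 6.07% lower of all genes tested. Of 26 heat shock and chaperone genes 1 was called (1 more, higher, with the block), the small heat shock protein of muscle *Hspb7*, which fell by 0.82 (129.6 to 171 RPM in control, 79.6 to 87.6 RPM in *Tug1* KD, FDR = 8.18e-08). *Hspa1a*, the inducible HSP70, ranged from 1173 to 1958 RPM in control and from 1156 to 1904 RPM in *Tug1* KD (log2FC 0.06, FDR = 0.912). In the integrated stress and unfolded protein response 1 of 27 was lower (3 with the block), the metabolic hormone *Fgf21* (113 ± 33.3 to 76.4 ± 19.3 RPM, −0.57). Of 23 NRF2 and antioxidant genes, 4 were lower and none higher (6 and 1 with the block): *Osgin1* (−0.71), the quinone reductase *Nqo1* (−0.57), superoxide dismutase *Sod1* (−0.36) and glutathione reductase *Gsr* (−0.25).

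Among p53 targets 3 of 24 were higher and 2 lower (4 and 5 with the block). The shares over all genes tested were 8.25% and 6.07% (13.1% and 11.2% with the block). Sestrin 1 (*Sesn1*), an inhibitor of mTORC1 signalling, rose from 52.3, 67.7 and 81.1 RPM at the lowest, median and highest control library to 95.4, 136 and 188 RPM (log2FC 1.03, SE 0.150, FDR = 5.86e-06). *Fbxw7* (0.60) and *Eda2r* (0.54) rose, and *Trp53inp1* (−0.54) and *Ei24* (−0.18) fell. Of 28 interferon response genes 2 were higher and 2 lower (2 and 4 with the block): the antiviral GTPase *Mx2* (25.4 ± 9.55 to 68.3 ± 18.4 RPM, log2FC 1.43) and *Ifit2* (0.46; FDR = 0.0329, and 0.0560 with upper quartile factors) rose, and *Ube2l6* (−0.73) and *Ifi35* (−0.70) fell. None of 19 NF-kB and chemokine genes was called (1 higher and 3 lower with the block). The RGK small GTPases, which restrain calcium channels, split, with *Rrad* up (46.6 ± 10.2 to 75.5 ± 7.35 RPM, 0.70) and *Rem1* down (−0.54) of 4.

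In the lists of muscle mass and growth the counts called differed from list to list, to be read beside the 8.25% higher and 6.07% lower of all genes tested. In atrophy and FOXO signalling 4 of 18 were higher, the ubiquitin ligases *Fbxo40* (log2FC 0.92) and *Cblb* (0.61), *Smad3* (0.57) and *Foxo3* (0.27; FDR = 0.0324, and 0.0607 and 0.0612 with library size and upper quartile scaling), and *Fbxo21* (−0.42) was lower. In BMP and TGF-beta signalling 3 of 29 were higher (4 higher and 1 lower with the block), the receptor *Bmpr2* (0.79), the ligand *Tgfb2* (0.71) and *Ltbp1* (0.70), which holds latent TGF-beta in the matrix. Of 17 myokine and growth factor genes *Igf1r* was called, higher by 0.71 (57.0 ± 4.03 to 93.0 ± 15.2 RPM), and the block called 1 higher and 3 lower. Of 27 collagens the transmembrane collagen *Col25a1* (log2FC 1.70) and *Col4a5* (0.48) were higher (4 with the block). In cholesterol and fatty acid synthesis *Dhcr7* alone of 31 was called (0.24), and it was not called with upper quartile factors, while the block called 3 higher and 1 lower.

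Among the remaining lists, cell cycle genes had 3 lower of 34 and 11 lower and 1 higher with the replicate block. Their median log2FC was −0.22 and 29 of 34 were negative. Those called were *Mcm5* (−0.41), *Aurka* (−0.31) and the inhibitor *Cdkn2c* (−0.28). The shares over all genes tested were 6.07% lower and 8.25% higher (11.2% and 13.1% with the block). The CLK kinases and SR splicing factors had 3 higher of 19 (3 higher and 2 lower with the block), the kinases *Srpk2* (0.76) and *Srpk1* (0.33) and *Srsf7* (0.35). Of 13 nuclear long non-coding RNAs, *Norad* (118 ± 11.2 to 176 ± 22.6 RPM, 0.58) and *Kcnq1ot1* (0.68; FDR = 0.0363, and 0.0523 with upper quartile factors and 0.0571 with limma-voom) were higher and *Sspnos* lower (4 higher and 1 lower with the block). No circadian clock gene of 15 and no Polycomb repressive complex 2 gene of 11 passed the test; with the replicate block 2 clock genes were higher and 1 Polycomb gene lower. In these and the other lists without a call by edgeR, DESeq2 and limma-voom called none either, and the genes with an unadjusted p under 0.05 were 2 of the clock, 1 of Polycomb, 4 of NF-kB and chemokines, 2 of the myotube markers and 0 of the myosin heavy chains, the mtDNA-encoded subunits and the osteoblast markers.

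Markers of cells other than myotubes are given as measured. The summed level of the reserve cell and myoblast markers was 1052.79 to 1093.06 RPM in control and 1022.42 to 1254.84 RPM in *Tug1* KD. Of 13 tested genes 1 was lower, *Spry1* (−0.32), or 4 lower and 1 higher with the replicate block. This sum also hides opposite moves, with log2FC from −0.40 to 0.44, 6 positive and 7 negative. *Notch1* and *Notch2* were higher, and *Cd34*, *Hes1* and *Spry1* lower, in every same-numbered pair. Fibroblast markers summed to 283 to 405 RPM and 280.2 to 430.2 RPM, with *Tcf21* at 0 in every control library and 1 of 5 tested genes lower, *Pdgfra* (9.78 ± 0.869 to 5.597 ± 1.05 RPM, −0.80). Osteoblast markers summed to 57.2 to 68.7 and 60.7 to 87.6 RPM, with *Ibsp* at 0 in every library and none of 3 tested genes called. Adipocyte markers summed to at most 2.44 RPM, with *Plin1* at 0 in every *Tug1* KD library and no gene past the filter. The part of these cells in the results was not tested.

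The length of a gene moved with its difference. Genes were ranked by annotated span, from first to last base including introns, and cut into deciles. In the decile with the shortest spans 1.72% of genes were higher and 7.46% lower, and in the decile with the longest 32.9% were higher and 0.43% lower. The median log2FC went from −0.12 to 0.28 between these deciles. The higher genes had a median span of 93598 bases and the lower genes 13889 bases, with medians of 9520 and 4496 bases of exon. Of the 101 genes of at least 500000 bases, *Dmd* and *Nrxn3* among them, 45 were higher and none lower, 91 had a positive log2FC, and the median was 0.40. *Exoc4*, a subunit of the exocyst chosen after its values were seen, had the lowest FDR of the 101. Its mean was 59.2 RPM in control against 127 RPM in *Tug1* KD (log2FC 1.11, FDR = 4.32e-13). Others of like control mean varied: *Inpp4b* (60.8 RPM) had a log2FC of 1.03, *Ptprd* (56.0 RPM) 0.39 and *Foxp1* (56.4 RPM) 0.05.

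The same relation stood in the libraries of the other times: in the longest decile 22.2% of genes were higher at Rest and 25.9% at EPS 3h, against 0.93% and 1.43% in the shortest. Scaling by library size left it in place (29.4% against 1.51%), as did the replicate block (45.7% against 4.44%). The members of the dystrophin-glycoprotein complex had a median span of 70501 bases, those of excitation-contraction coupling 63074, of fusion 86525 and of the nuclear oxidative phosphorylation genes 8935.5, so that these lists also differed in length. The part of span in the differences between lists was not tested.

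**Figure D4:**
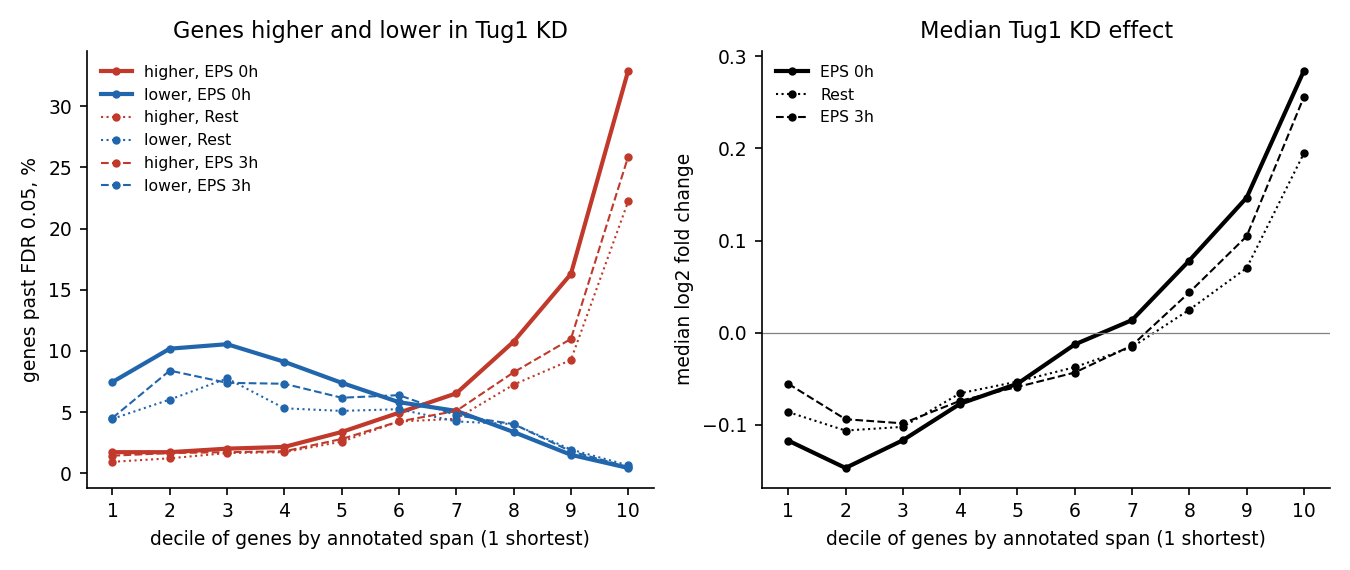
Left, percent of genes higher (red) and lower (blue) in *Tug1* KD in each decile of genes ordered by annotated span, at EPS 0h (solid), Rest (dotted) and EPS 3h (dashed); right, the median log2FC of each decile at the 3 times. At EPS 0h the share of higher genes goes from 1.72% in the shortest decile to 32.9% in the longest, and the median log2FC from −0.12 to 0.28.

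Whether the difference at EPS 0h was unlike that at Rest was tested with the interaction, which takes the *Tug1* KD effect at EPS 0h minus that at Rest. No gene passed an FDR of 0.05 with edgeR, DESeq2 or limma-voom, and 324, 352 and 311 genes had an unadjusted p under 0.05. The median SE of the interaction was 0.205 on the log2 scale, so that modest differences between the times were not detectable here. With the replicate block 1 gene passed (0.00715% of those tested), *Sesn1*, with an interaction of 0.75 (SE 0.123, FDR = 0.0107).

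*Sesn1* had a log2FC of 1.03 at EPS 0h and 0.27 at Rest (interaction 0.76, 95% interval 0.35 to 1.18, unadjusted p = 9.51e-04 in the fit without the block), with means at Rest of 55.2 ± 4.40 RPM in control against 66.5 ± 6.27 RPM in *Tug1* KD. *Ppp1r3c* was higher by 0.54 at EPS 0h and had a log2FC of −0.19 at Rest (interaction 0.73, 0.21 to 1.25, unadjusted p = 0.00921). *Mx2* was higher by 1.43 at EPS 0h beside 0.36 at Rest (interaction 1.07, 0.22 to 1.92, unadjusted p = 0.0191). *Sertad1* fell by 1.13 at EPS 0h and by 0.47 at Rest (interaction −0.66, −1.08 to −0.24, unadjusted p = 0.00426). *Esrrb* and *Rrad* rose more at Rest, by 2.39 and 1.14 against 0.85 and 0.70 (interaction −1.54, unadjusted p = 0.00293, and −0.45, unadjusted p = 0.0221). Apart from *Sesn1* with the block, none of these interactions passed the adjustment over all genes.

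Read side by side over all genes, the *Tug1* KD effects at the 3 times ran together. Single lists could differ: most nuclear oxidative phosphorylation genes were negative at EPS 0h and most were positive at Rest. Across the 13995 genes the log2FC at EPS 0h correlated with that at Rest with r = 0.72 and with that at EPS 3h with r = 0.82, as a description, since genes are not independent replicates and no library is shared. Of the 2005 genes called at EPS 0h, 1972 had the same sign at Rest and 1995 at EPS 3h. At Rest 1063 of them were called in the same direction, which is 53.02% of the genes called at EPS 0h and 75.9% of the 1401 (10% of genes tested) called at Rest; at EPS 3h 1252 were, 62.4% of those at EPS 0h and 77.9% of the 1608 (11.5%) at EPS 3h. All 3 times called 860 genes, and 550 genes (291 higher, 259 lower) were called at EPS 0h and at neither other time, for which no interaction passed the threshold in the fit without the block.

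**Figure D5:**
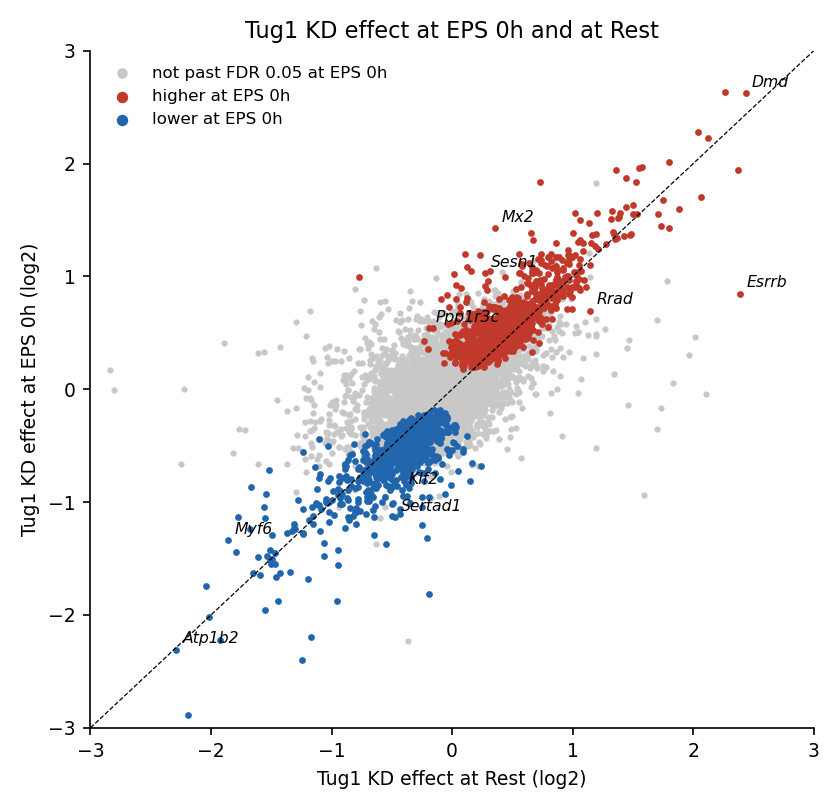
Log2 fold change of *Tug1* KD against control at EPS 0h (y axis) and at Rest (x axis) for each gene tested, from separate libraries; both axes end at 3 in either direction and leave out 4 genes. Most genes lie along the diagonal, with *Dmd* high and *Atp1b2* low on both axes, *Sesn1*, *Ppp1r3c* and *Mx2* above it, and *Esrrb* and *Rrad* below it.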

How the data were processed

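RNA from 36 wells was sequenced as strand-specific poly-A libraries, and 12 of them, EPS 0h with control or *Tug1* LNA, are compared here. The authors trimmed the reads with fastp v0.14.1, checked them with FastQC v0.11.7, aligned them with STAR v2.5 to GRCm39 with the Ensembl annotation, and deposited whole-number counts per gene without normalization. The counting tool's mode and its strand setting are not given in the sources used here. Genes without a name held 0.0327% of the counts, were kept under their gene identifiers and went through the same filter as the others. Groups and replicate numbers were read from the titles.

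Tests were run with edgeR 4.0.16 (R 4.3.3) on the 13995 of 55416 genes that reached 1 RPM in 12 or more of the 36 libraries, with TMM factors and a robust quasi-likelihood fit to all 36 libraries in 6 groups, which share an estimate of the spread. Tests were two-sided, the Benjamini-Hochberg FDR was taken over all genes tested, and the SE of a log2FC was obtained from the F statistic, as the absolute log2FC over its square root. On simulated counts for this comparison, with 200 of 13995 genes changed by 1 on the log2 scale, edgeR recovered 86% with 9 false calls, and for the interaction 63%. The study states that wells came from separate experiments but its text does not tie wells to replicate numbers, so p-values measure the spread between these wells. Every pair of libraries of a group differed by more than counting error (lowest chi-square over its degrees of freedom 5.20). Replicate numbers pair the libraries at EPS 0h: after centring within groups, the 6 same-numbered pairs correlated at 0.63 to 0.75. Pairs of different numbers within a set (replicates 1 to 3 or 4 to 6) correlated at 0.35 to 0.70, and pairs across the sets at −0.70 to −0.33. All 6 *Tug1* KD but 5 of 6 control libraries correlated best with their own number (control replicate 4 reached 0.70 with another number, against 0.65). Alternatives were DESeq2 1.42.0, limma-voom (limma 3.58.1, the study's tool), scaling by library size or upper quartile, no filter, a stricter filter (10 counts in 30 libraries), a replicate block, a block for replicates 1 to 3 against 4 to 6, the compared groups alone and each set of replicates alone. A block fit to the EPS 0h libraries only was added after seeing the data.

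The comparison, its 37 gene lists and how genes are named were chosen with earlier results of these data known. Named are the genes of the study's text, the 10 largest rises and falls past the FDR that averaged 5 RPM or more in either group, without overlap between them, up to 4 called genes per list and direction, the nearest genes on each side of *Tug1*, and up to 5 interactions past the FDR in each direction, of which there were none. Gene spans come from GENCODE on GRCm39, which holds 13946 of the genes tested (99.6%), and promoters from RefSeq on GRCm38.p6. Results for 8 genes that these rules cover and 1 list are not reported here.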

Additional observations from a re-analysis of the deposited data

Results flagged for a closer look

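In 5 of 282 groups of 6 libraries (1.77%) the most extreme library stood apart from the others by Dixon's criterion, and chance alone flags about 1 in 20 groups. Replicate 6 of *Tug1* KD had the highest *Myom2* level, 1141 RPM, beside 995 to 1040.3 RPM in the other 5 libraries, and the lowest *Sspn* level, 54.7 RPM, beside 66.8 to 71.4 RPM. The lowest *Rrad* level was 61.0 RPM in replicate 3 of *Tug1* KD, beside 75.8 to 80.6 RPM, and it lay within the range of the control libraries. *Ifi35* was highest in replicate 1 of *Tug1* KD, at 12.7 RPM beside 9.26 to 9.88 RPM, which is still below every control library. In control, *Spry1* was highest in replicate 5, at 44.4 RPM beside 37.4 to 39.0 RPM.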

How the results depend on the processing

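The counts of higher and lower genes at EPS 0h stayed within 1.5 times the main counts under DESeq2 (1242 and 1067), limma-voom (1152 and 844), scaling by library size or upper quartile, the stricter filter (1161 and 834), the compared groups alone (1065 and 719) and replicates 4 to 6 alone (1428 and 901). Without the filter, where 39727 genes were tested, 799 were higher and 496 lower. Replicates 1 to 3 alone, with fewer libraries, gave 542 higher and 367 lower. The replicate block gave 1838 higher and 1568 lower, the block for the sets of replicates 1721 and 1458, and the replicate block in the EPS 0h libraries only, chosen after seeing the data, 3191 and 3165. For the interaction both block fits called 1 higher gene and no lower gene, and every other alternative run called none in either direction.

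Of the 127 called genes that the naming rule covers, none lost its call with DESeq2 or any block, nor did any of the 123 that passed the stricter filter, 3 lost it with limma-voom, 6 with library size scaling, 11 with upper quartile factors, 16 with the compared groups alone, 35 without the filter, 47 in the first set of replicates (1 to 3) and 21 in the second (4 to 6). Of the 14 not called, 4 passed with the replicate block and 2 with DESeq2, library size scaling and upper quartile factors each. The sign turned for *Gabpa* with upper quartile factors (−0.014) and, in replicates 1 to 3 alone, for *Tfam* (0.011) and *Hspa1a* (−0.049). The causes were not tested. Genes near 1 RPM, such as *Esrrg*, *Esrrb* and *Stab2*, rest on few counts.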

Other observations

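Values follow for a few genes that belong to none of the lists and were called at EPS 0h and at neither Rest nor EPS 3h, chosen after they were seen, and none of their interactions with Rest passed the adjustment over all genes. *Cxcr6*, a chemokine receptor, averaged 0.413 RPM without and 1.47 RPM with *Tug1* KD (log2FC 1.84, FDR = 2.35e-05), with 0.73 at Rest and 0.57 at EPS 3h. *Pcdhb19*, a clustered protocadherin of cell adhesion, rose by 0.96 (2.11 to 4.13 RPM, FDR = 1.44e-05), beside 0.30 at Rest and 0.22 at EPS 3h. *Pacsin2*, a membrane-bending protein of endocytosis and caveolae, rose by 0.41 (420.6 to 559.96 RPM), and *Tbx15*, a T-box factor of fast fibres, by 0.49 (187.8 to 263.5 RPM). At Rest and EPS 3h *Pacsin2* had 0.19 and 0.27, and *Tbx15* 0.30 and 0.27. *Fndc10* fell by 1.37 (4.03 to 1.53 RPM), *Arl4d*, a small GTPase of the ARF family, by 1.11 (3.81 to 1.75 RPM) and *Gpx3*, a secreted glutathione peroxidase, by 0.42 (60.5 to 45.4 RPM). Their log2FC at Rest and EPS 3h had the same sign: −0.55 and −0.70 for *Fndc10*, −0.43 and −0.42 for *Arl4d*, −0.15 and −0.29 for *Gpx3*. *Slc25a25*, a mitochondrial carrier of ATP and magnesium, fell by 0.39 (68.4 to 52.2 RPM), beside −0.09 at Rest and −0.24 at EPS 3h.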
